A study of Mus musculus with 8 samples.

Results

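Guanylate-binding proteins (GBPs) are large GTPases of the dynamin superfamily, and their genes are among the classical targets of IFNγ in macrophages. IFNγ signals through its receptor and the kinases JAK1 and JAK2, and it induces IRF1, a transcription factor that binds ISRE elements. ISRE elements and GAS elements, the IFNγ-activated sites, are found upstream of GBP genes. The proteins assemble on pathogen-containing vacuoles and on bacteria in the cytosol, help to break them open, and deliver lipopolysaccharide to caspase-11, the sensor of the noncanonical inflammasome. The 9 GBP genes with a row under the symbols Gbp2, Gbp2b and Gbp3 to Gbp9 were taken from the 21080 genes listed at both times, by symbol, and the rule itself uses no measured value.

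The 8 samples were bulk RNA-seq libraries from bone marrow-derived macrophages (BMDMs), grown from C57BL/6 marrow in M-CSF. WT samples came from sex-matched LysM-Cre littermates, so that the Cre driven from the lysozyme 2 locus of myeloid cells was carried by both genotypes. Nudt21-cKO samples came from Nudt21 fl/fl LysM Cre mice, in which Cre removes exons 2 and 3 of Nudt21, the gene of the CFIm25 subunit of cleavage factor I that binds UGUA in 3′UTRs and guides the choice of polyadenylation site. Each genotype had 2 samples at 0 h and 2 at 4 h, treated overnight with 50 ng/ml IFNγ and then for 4 h with 50 ng/ml LPS, and each sample pooled 2 mice. The 0 h samples are taken here as unstimulated because only the 4 h titles name IFNγ and LPS, although a treatment label of stimulation stands on all 8 samples. Because IFNγ was given the night before LPS, the 4 h values follow both stimuli and do not separate them.

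The tables name no unit, and their values were read as mean coverage per base along a gene, a quantity already divided by gene length. Multiplied by transcript length, 27.9% to 40.2% of low values of genes with 1 transcript came to whole bases (within 0.02), and levels of different genes are set side by side on that reading. Summed over all genes, coverage was between 14950347 and 17954882 per sample. Nudt21 was 718 and 641 in WT and 158 and 172 in Nudt21-cKO at 0 h, and 547 and 575 against 142 and 115 at 4 h, so it was lower in every Nudt21-cKO sample (log2 fold change -2.04, SE 0.13, limma adjusted p = 0.0462 at 0 h, and -2.13, SE 0.16, adjusted p = 0.0445 at 4 h). All 8 macrophage markers examined were above 0 in every sample, with summed coverage of 123900 to 134000 at 0 h, where the genotypes overlapped, and of 58310 to 62180 in WT and 68600 to 70900 in Nudt21-cKO at 4 h, where they did not. Between genotypes 1 of the 8 was called higher and 3 lower at 0 h, and 2 higher at 4 h (more than 1.5-fold with an unadjusted limma p under 0.05), beside 8.99% and 5.61% of all genes at 0 h and 20.8% called higher at 4 h. Among lists for other cells, the 8 neutrophil markers had the highest sum, of which S100a9 was the largest part, with 23950 to 26510 in WT and 27800 to 36850 in Nudt21-cKO at 0 h and 18010 to 22250 against 22710 to 25790 at 4 h. These sums did not overlap between genotypes at either time, 1 of the 8, Camp, was called higher at 4 h and none at 0 h, and the defining marker Ly6g was between 0 and 7.37. The B cell markers summed to 125 to 143 in WT and 67.9 to 73.5 in Nudt21-cKO at 0 h, and the T and NK cell markers to at most 21.5 in any sample. Mast cell and basophil sums also did not overlap, at 9.4 to 9.7 in WT against 3.8 to 4.2 at 0 h. At 4 h they were 7.0 to 8.3 against 1.9 to 4.0. In the lists beyond macrophages and neutrophils, Col3a1 was called higher at both times and Cd79b and Alas2 lower at 0 h. At 4 h Zbtb46 was called higher and Xcr1 lower. The part of these cells in the results was not tested, and in bulk RNA fewer cells of a type and less RNA per cell cannot be told apart.

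The members lie in 2 clusters (RefSeq positions, GRCm38). Gbp5, Gbp7, Gbp3, Gbp2b and Gbp2 follow each other on the plus strand of chromosome 3 over 141.1 kb, from 142496934 to 142638008. Gbp8, Gbp9, Gbp4 and Gbp6 lie on the minus strand of chromosome 5 over 283.4 kb, from 105012513 to 105295871, with the related gene Gbp10 between Gbp4 and Gbp6.

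Start-site regions are shown for the chromosome 3 members because promoter entries were found for these alone, and were searched for ISRE and GAS elements. RefSeq promoter sequences, 250 bases before to 50 after a start site, matched 5 members, with 6 entries because Gbp3 has 2 start sites. No entry was found for Gbp4, Gbp6, Gbp8 or Gbp9, so the chromosome 5 members, which also rose after stimulation, were not searched. Both strands were searched for the core of the ISRE, which is GAAA, any 2 bases and GAAA again, or TTTC, any 2 bases and TTTC when it is read from the other strand, and for TTCNNNGAA, the GAS palindrome. The ISRE core was present in 5 of the 6 entries, all but the second start site of Gbp3, and so in each of the 5 members, against 3.44% of all 32851 promoters. The GAS letters were present in 2 entries, those of Gbp5 and Gbp7, against 8.3%. Windows of 30 bases around matches, the ISRE in each of the 5 members both GAS matches of Gbp7 and 1 of the 2 of Gbp5, are given 5′ to 3′ on the plus strand, which is the coding strand of these genes, with the matched letters in capitals.
Gbp5 ISRE, chr3:142496759-142496788: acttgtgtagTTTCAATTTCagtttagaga
Gbp5 GAS, chr3:142496872-142496901: tggccgttatTTCTCAGAAccaagcacaga
Gbp7 GAS, chr3:142530220-142530249: tccgttttctTTCCAGGAAaagcagaagct
Gbp7 GAS, chr3:142530239-142530268: aagcagaagcTTCTCAGAAagtcagcacaa
Gbp7 ISRE, chr3:142530273-142530302: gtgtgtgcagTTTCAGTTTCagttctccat
Gbp3 ISRE, chr3:142559989-142560018: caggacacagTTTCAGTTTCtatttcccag
Gbp3 ISRE, chr3:142559995-142560024: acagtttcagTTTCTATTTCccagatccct
Gbp2b ISRE, chr3:142594700-142594729: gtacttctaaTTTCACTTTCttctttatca
Gbp2 ISRE, chr3:142620594-142620623: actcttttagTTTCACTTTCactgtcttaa

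All coordinates are from GRCm38.p6, and every ISRE match reads as the reverse complement of the core. Counted from the start site, with the base just upstream as -1, the ISRE match began at -59 in Gbp2, at -53 in Gbp7, at -45 and -39 in Gbp3, at -137 in Gbp2b and at -165 in Gbp5. The 2 Gbp3 matches overlap, and the windows of the 2 Gbp7 GAS matches overlap each other. These letters are a description of the windows and no measure of binding.

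Before stimulation the family was a minor part of the RNA. Its 9 genes summed to 538 and 580 in WT and to 480 and 472 in Nudt21-cKO, which was 0.00342% and 0.00366% of all coverage in WT and 0.00288% and 0.00266% in Nudt21-cKO. In WT, Gbp2 had the highest mean level at 151, followed by Gbp3 at 140, and their samples overlapped. Gbp9 at 105, Gbp7 at 76.6, Gbp5 at 44.2, Gbp8 at 20.8, Gbp6 at 16.9 and Gbp4 at 4.23 came next, with no overlap between neighbours in that order. Gbp2b was listed at 0 in all 4 unstimulated samples. In Nudt21-cKO the order of the means was the same, but Gbp3, Gbp9 and Gbp7 overlapped from neighbour to neighbour, as did Gbp8, Gbp6 and Gbp4.

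**Figure D1:**
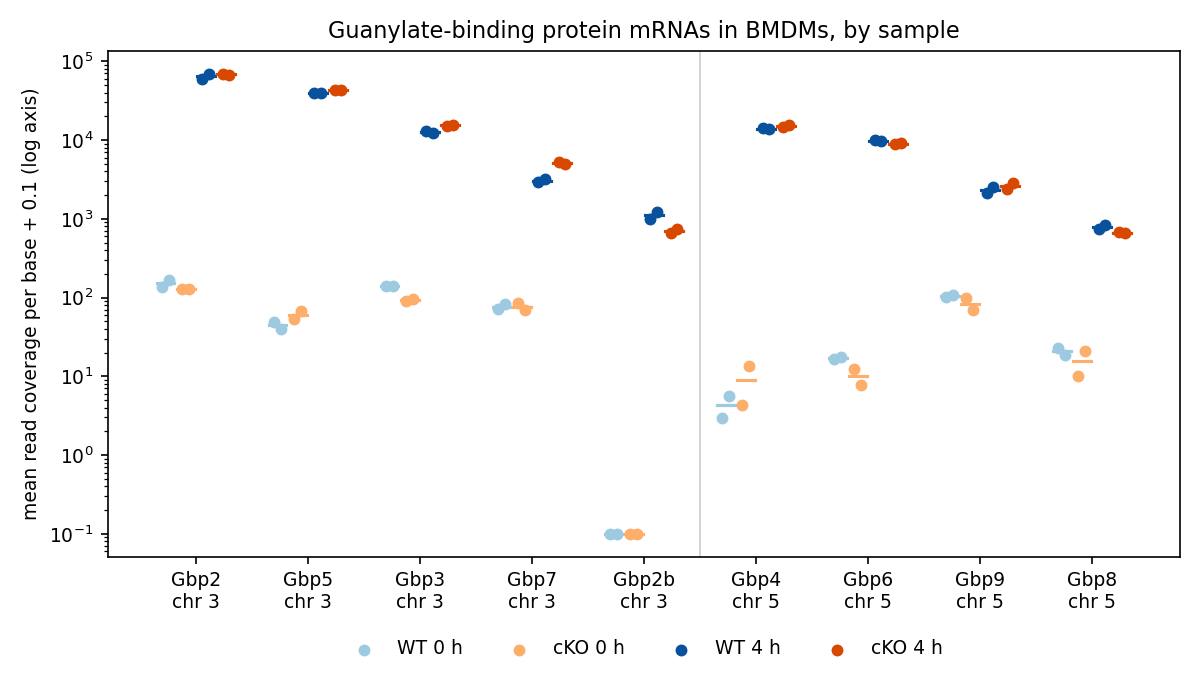
Coverage per base plus 0.1, on a log axis, for the 9 GBP genes in each of the 8 samples, with a point for each sample, colours for genotype and time, and short lines at group means. The 4 h points of every gene sit above its 0 h points, and the Gbp2b points at 0.1 before stimulation stand for a coverage of 0.

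Every member was higher at 4 h, after IFNγ and LPS, in both genotypes. At 4 h the 9 genes summed to 142858 and 152353 in WT and to 159281 and 159865 in Nudt21-cKO, which was 0.919% and 1.02% of all coverage in WT and 0.918% and 0.89% in Nudt21-cKO. The 8 members above 0 at both times were called higher (more than 1.5-fold, limma adjusted p under 0.05) in WT, where 11.3% of 16002 genes tested were called higher, and also in Nudt21-cKO, where 13.3% of 16223 were. Gbp2b is left out of this count because it was 0 in every 0 h sample and entered the test only through its 4 h values. The median log2 fold change of these 8 members was 7.62 in WT and 8.21 in Nudt21-cKO, beside -1.27 and -1.05 over all genes tested. Over all genes 52.3% were called lower in WT and 51.5% in Nudt21-cKO in these unscaled values, and the same 8 members were called higher under each scaling that was tried.

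Gbp2, which acts with Gbp5 in caspase-11 signalling and in release of bacterial DNA to AIM2, reached the highest level of the family. Its coverage was 135 and 166 in WT and 129 and 129 in Nudt21-cKO at 0 h. At 4 h it was 59547 and 69472 in WT and 68696 and 67808 in Nudt21-cKO, which made it the 29th and 23rd most covered gene in the WT samples and the 26th and 28th in the Nudt21-cKO samples. The ratio of the group means was 427 in WT (log2 fold change 8.74, SE 0.19, limma adjusted p = 0.00178) and 529 in Nudt21-cKO (9.05, SE 0.08, adjusted p = 0.000913).

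Gbp5, which has been linked to NLRP3 inflammasome assembly as well as to attack on pathogen vacuoles, stood next. It rose from 49.1 and 39.3 to 39324 and 39557 in WT, and from 53.3 and 67.2 to 42681 and 42717 in Nudt21-cKO. These were ratios of 892 in WT (log2 fold change 9.81, SE 0.18, limma adjusted p = 0.00178) and 709 in Nudt21-cKO (9.48, SE 0.16, adjusted p = 0.000995). Gbp2 and Gbp5 are among the members that end in a CaaX motif, through which they are prenylated and attach to membranes, and they were the most covered members at 4 h in every sample.

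Gbp4 had the steepest rise of the 8 members above 0 at both times and the lowest mean among them at 0 h. It went from 2.87 and 5.58 to 14017 and 13763 in WT and from 4.27 and 13.6 to 14836 and 15470 in Nudt21-cKO. The log2 fold change was 11.72 in WT (SE 0.39, limma adjusted p = 0.00202) and 10.94 in Nudt21-cKO (SE 0.68, adjusted p = 0.00257). Tested genes were ranked by log2 fold change where their 0 h coverage averaged 0.5 or more in that genotype. Gbp4 was the 6th of 15453 in WT and the 13th of 15576 in Nudt21-cKO. Its 0 h values were low and spread widely, and without Nudt21-cKO 0 h sample 3 its log2 fold change was 10.11, below the 10.19 of Gbp6, and without sample 4 it was 11.76, so its place in Nudt21-cKO rests on these samples.

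Gbp6 rose from 16.3 and 17.6 to 9970.5 and 9609 in WT and from 12.5 and 7.58 to 8898 and 9069 in Nudt21-cKO, with log2 fold changes of 9.17 (SE 0.13) and 9.84 (SE 0.30). Of the 150-base windows of the GENCODE Gbp6 transcript, 30.3% also occur in Gbp10, so reads of these genes could be split in more than 1 way and the Gbp6 values are uncertain. Gbp10 itself rose from 2.54 and 4.64 to 2399 and 2190 in WT and from 3.51 and 2.41 to 1993 and 2142 in Nudt21-cKO. No other member shared more than 0.0456% of its windows with another GBP gene.

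Gbp3, whose cluster on chromosome 3 is needed in mice for resistance to Toxoplasma gondii, rose from 139 and 142 to 13170 and 12225 in WT and from 89.3 and 96.1 to 15240 and 15545 in Nudt21-cKO. The ratio of means was 90.6 in WT (log2 fold change 6.50, SE 0.13) and 166 in Nudt21-cKO (7.38, SE 0.09). Gbp7, which has been tied to assembly of the phagocyte NADPH oxidase, rose from 71.2 and 81.9 to 2942 and 3177 in WT and from 84.1 and 69.0 to 5211 and 4976 in Nudt21-cKO, with log2 fold changes of 5.32 (SE 0.15) and 6.06 (SE 0.14). In WT Gbp3 thus began beside Gbp2, whose samples it overlapped, and ended below it in both samples.

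Gbp8 and Gbp9 had small rises for the family, and their order with Gbp7 was not fixed: without WT 0 h sample 1 the WT log2 fold change was 5.39 for Gbp8 and 5.22 for Gbp7, and without Nudt21-cKO 0 h sample 3 that of Gbp8 was 5.01 and that of Gbp9 5.25. Gbp8 went from 22.9 and 18.7 to 749 and 832 in WT and from 10.1 and 20.6 to 682 and 651 in Nudt21-cKO (log2 fold change 5.25, SE 0.18, and 5.52, SE 0.42). Gbp9 went from 102 and 109 to 2134 and 2500 in WT and from 98.1 and 68.7 to 2374 and 2884 in Nudt21-cKO (log2 fold change 4.46, SE 0.15, and 4.99, SE 0.25). Gbp9 was nevertheless the 246th gene of 15453 by log2 fold change in WT and the 228th of 15576 in Nudt21-cKO. For Gbp3, Gbp6, Gbp7, Gbp8 and Gbp9 the limma adjusted p was at most 0.00207 in WT and at most 0.0035 in Nudt21-cKO.

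Gbp2b, also called Gbp1, was listed at 0 before stimulation and at 1005 and 1219 in WT and 663 and 745 in Nudt21-cKO at 4 h. No fold is given against the samples listed at 0. At 4 h it ranked 8th of the 9 members in both genotypes, above Gbp8, and in Nudt21-cKO the samples of Gbp2b and Gbp8 overlapped.

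**Figure D2:**
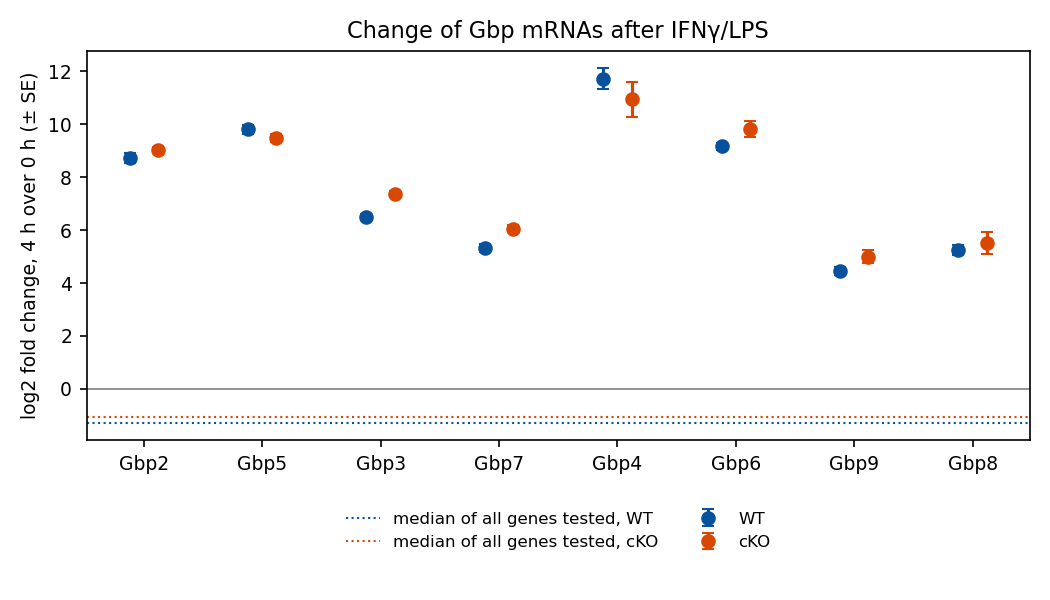
Log2 fold change from 0 h to 4 h (vertical axis) in WT (blue) and Nudt21-cKO (orange) for the 8 GBP genes above 0 at both times, with bars of 1 SE and dotted lines at the median of all genes tested in each genotype. Values in WT run from 4.46 for Gbp9 to 11.72 for Gbp4, and the dotted lines lie below 0.

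The make-up of the family differed between the times. Gbp2 gave between 25.2% and 28.7% of the summed GBP coverage in the 4 samples at 0 h, and Gbp5 between 6.78% and 14.2%. At 0 h Gbp3 gave 25.8% and 24.4% in WT and 18.6% and 20.4% in Nudt21-cKO, and Gbp9 gave 18.9% and 18.7% in WT and 20.4% and 14.6% in Nudt21-cKO. At 4 h Gbp2 gave 41.7% and 45.6% in WT and 43.1% and 42.4% in Nudt21-cKO, and Gbp5 gave 27.5% and 26.0% in WT and 26.8% and 26.7% in Nudt21-cKO. Over the 4 samples at 4 h Gbp3 gave between 8.02% and 9.72%, and Gbp9 between 1.49% and 1.804%. The shares of Gbp2 and Gbp5 were thus higher in every 4 h sample than in any 0 h sample, and those of Gbp3 and Gbp9 lower. Gbp7 gave 2.06% and 2.08% in WT and 3.27% and 3.11% in Nudt21-cKO at 4 h, and Gbp2b gave 0.703% and 0.80% in WT and 0.416% and 0.466% in Nudt21-cKO. At 4 h both Nudt21-cKO shares were above both WT shares for Gbp7 and Gbp3 and below them for Gbp2b, Gbp6 and Gbp8. The shares of Gbp2, Gbp4, Gbp5 and Gbp9 overlapped between genotypes. Shares of 1 sum are tied to each other, so they are not separate from the 4 h levels compared below. In levels, 51.1% of all genes at 4 h were higher without overlap and 14.9% lower.

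**Figure D3:**
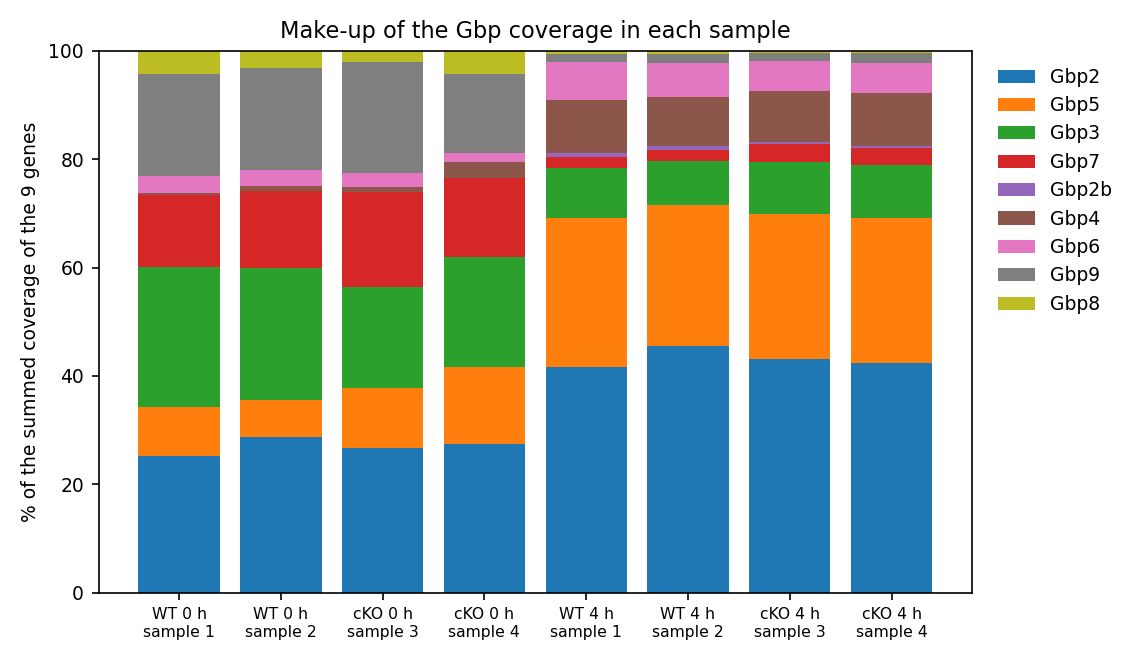
Share of the summed coverage of the 9 GBP genes given by each gene, in percent, as a stacked bar for each of the 8 samples. Gbp2 and Gbp5 take most of each bar at 4 h, and Gbp3, Gbp7 and Gbp9 take larger shares at 0 h.

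The comparison of genotypes before stimulation asked whether loss of Nudt21 alters the resting levels. A gene was called where the groups differed more than 1.5-fold with an unadjusted limma p under 0.05, the study's own rule, which does not correct for the number of genes. Gbp3 was the single member of 8 tested that was called, and it was lower in Nudt21-cKO. Over all 16251 genes tested, 14.6% were called, 8.99% higher and 5.61% lower. No member passed with an adjusted p under 0.05, as 1.03% of all genes did.

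Gbp3 was 139 and 142 in WT and 89.3 and 96.1 in Nudt21-cKO at 0 h. The Nudt21-cKO samples were both below the WT samples, at 0.661 of the WT mean, with a log2 fold change of -0.60 (SE 0.11, limma adjusted p = 0.134, range over the alternatives 0.0358 to 0.357). Without WT sample 2 (log2 fold change -0.58) or without Nudt21-cKO sample 3 (-0.54) the difference was smaller than 1.5-fold and the call was lost. For groups of this size the smallest p that a two-sided exact permutation test allows is 0.333.

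The other members were not called at 0 h. Gbp6 had 16.3 and 17.6 in WT against 12.5 and 7.58 in Nudt21-cKO, with a log2 fold change of -0.79 (SE 0.30, limma adjusted p = 0.282), and Gbp9 and Gbp2 also had both Nudt21-cKO samples below both WT samples, with log2 fold changes of -0.36 (SE 0.23) and -0.22 (SE 0.15). Gbp5 had both Nudt21-cKO samples above both WT samples, with 0.44 (SE 0.21, limma adjusted p = 0.345). In all, groups did not overlap in 4 members lower and 1 higher in Nudt21-cKO, beside 20.9% of all genes lower and 36.1% higher. Gbp4, Gbp7 and Gbp8 overlapped, with log2 fold changes of 0.91 (SE 0.77), 0.00 (SE 0.17) and -0.52 (SE 0.44). The median over the 8 members was -0.29, beside 0.10 over all genes tested. When Nudt21-cKO sample 3 was left out Gbp6 (-1.15) and Gbp9 (-0.61) were called lower, and without Nudt21-cKO sample 4 Gbp8 (-1.03) was. In such fits the 1 sample left in a group is assumed to vary like the other group. Gbp6 (-0.79) was also called lower when all 8 samples shared 1 estimate of the spread.

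**Figure D4:**
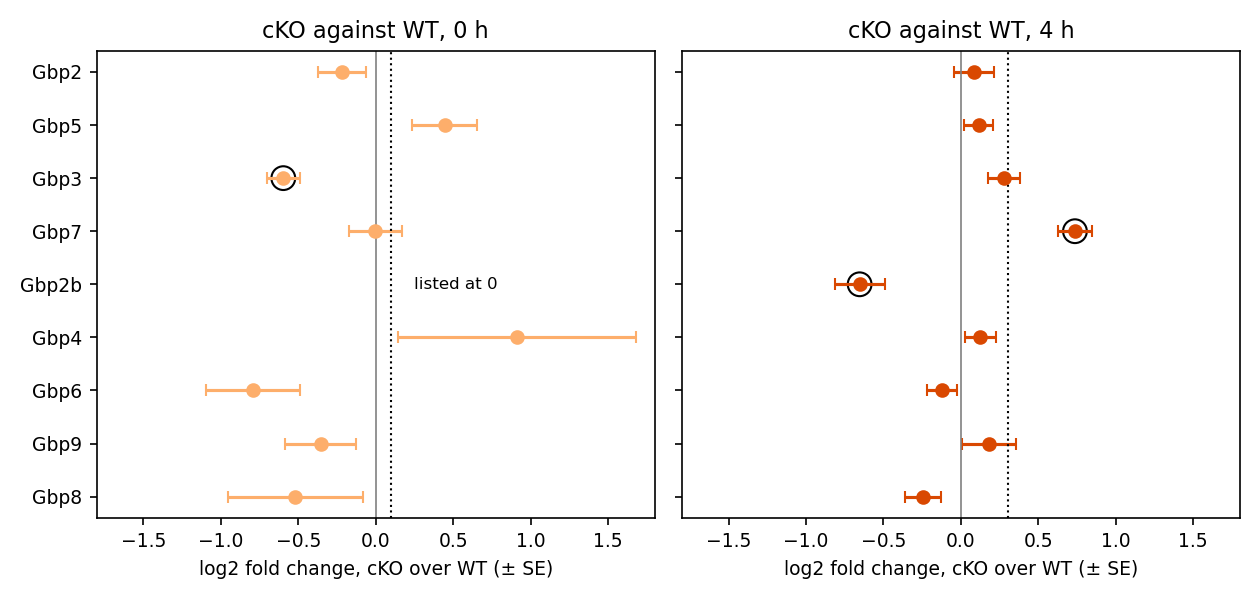
Log2 fold change of Nudt21-cKO against WT for each GBP gene at 0 h (left) and 4 h (right), with bars of 1 SE, open circles around called genes, and a dotted line at the median of all genes tested (0.10 and 0.31). Gbp3 is called at -0.60 at 0 h, and Gbp7 at 0.74 and Gbp2b at -0.65 at 4 h.

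After stimulation 2 of 9 members were called, Gbp7 higher and Gbp2b lower in Nudt21-cKO, which are both genes of the chromosome 3 cluster. Over all 14950 genes tested, 25% were called, 20.8% higher and 4.17% lower. None of the 9 passed with an adjusted p under 0.05, as 3.86% of all genes did. Unadjusted limma p was under 0.05 for Gbp7 and Gbp2b alone, beside 34.3% of all genes tested.

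Gbp7 was 2942 and 3177 in WT and 5211 and 4976 in Nudt21-cKO at 4 h. Both Nudt21-cKO samples were above both WT samples, at 1.67 times the WT mean, with a log2 fold change of 0.74 (SE 0.11, limma adjusted p = 0.0646, range over the alternatives 0.00243 to 0.329). It was the only member above the median of all genes tested, which was 0.31, and it stood 0.43 above that median. When samples were centred on their median gene the log2 fold change was 0.40, with equal totals 0.52 and after quantile normalization 0.53, each below 1.5-fold, so the call was lost under every scaling tried while the direction was kept.

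Gbp2b was 1005 and 1219 in WT and 663 and 745 in Nudt21-cKO at 4 h. Both Nudt21-cKO samples were below both WT samples, at 0.634 of the WT mean, with a log2 fold change of -0.65 (SE 0.16, limma adjusted p = 0.106, range over the alternatives 0.0126 to 0.351). It stood 0.96 below the median of all genes, and the call was kept under each scaling (-0.87 to -0.99). Leaving out WT sample 2 (log2 fold change -0.51), Nudt21-cKO sample 3 (-0.57) or Nudt21-cKO sample 4 (-0.74) ended the call.

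The remaining members differed by less than 1.5-fold at 4 h. Gbp3 (log2 fold change 0.28, SE 0.11), Gbp4 (0.13, SE 0.10) and Gbp5 (0.11, SE 0.10) had both Nudt21-cKO samples above both WT samples, and Gbp6 (-0.12, SE 0.10) and Gbp8 (-0.24, SE 0.12) had both below. Counting Gbp7 and Gbp2b, groups did not overlap in 4 members higher and 3 lower in Nudt21-cKO, beside 51.1% of all genes higher and 14.9% lower. Gbp2 (0.09, SE 0.13) and Gbp9 (0.18, SE 0.17) overlapped. The median over the 9 members was 0.11, and the small positive values of Gbp2, Gbp4, Gbp5 and Gbp9 turned negative under each of the scalings tried, that of Gbp3 under median centring, so no direction is given for these genes.

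Whether the response to stimulation differed between genotypes was tested directly, with an interaction term over the 8 samples. Gbp3 was the 1 of 9 members that passed (adjusted p under 0.05), beside 3.05% of 16284 genes. Its rise was larger in Nudt21-cKO by 0.88 on the log2 scale (SE 0.13, limma adjusted p = 0.0462). It is the difference between the 4 h value of 0.28, whose sign turned under median centring, and the 0 h value of -0.60. The adjusted p ranged from 0.00855 to 0.177 over the alternatives, it passed the threshold with a pseudocount of 1, with equal totals and with an intensity trend, and it passed under none of the others, which include no filter on low values, median centring, quantile normalization and leaving out any 1 of the 8 samples (0.0595 to 0.157).

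For Gbp7 the rise was larger in Nudt21-cKO by 0.74 (SE 0.20, limma adjusted p = 0.123). For Gbp2b, listed at 0 in both genotypes at 0 h, the interaction of -0.65 (SE 0.18, adjusted p = 0.131) restates its 4 h difference. The other members gave differences from -0.79 for Gbp4 (SE 0.85) to 0.67 for Gbp6 (SE 0.34), with limma adjusted p of at least 0.328. The median over all genes tested was 0.20.

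Annotated 3′UTRs of the members differ in length, which is given because CFIm25 acts through UGUA in that part of the transcript. In GENCODE models Gbp7 had the longest 3′UTR of the 9 members, 3575 bases with 17 UGUA, and a shorter Gbp7 transcript has 476 bases with 2. All coding models were taken for Gbp7 and only those matched to RefSeq for the other members, so shorter models of these may be missing. Per kb the longest Gbp7 3′UTR had 4.76 UGUA, within the range from 3.38 in Gbp5 to 10.1 in Gbp6. Gbp4 had 2511 bases with 11, Gbp9 2425 with 14, Gbp5 1182 with 4, Gbp2b 974 with 4, Gbp8 796 with 6, Gbp6 691 with 7, Gbp2 515 with 4 and Gbp3 510 to 517 with 4. Coverage per gene does not show which 3′ end was used, and no relation between these lengths and the genotype differences was tested.

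Genes that act around the GBPs were taken from 5 lists with 46 genes, of which 42 were found and tested. They are the nearest relatives, the regulators that induce GBPs, the enzymes that prenylate them, the immunity-related GTPases and autophagy conjugation proteins that position them, and the inflammasome genes on which they act. At 0 h 2 of 42 were called higher in Nudt21-cKO and 1 lower, and at 4 h 8 higher and 1 lower, beside the 8.99% and 5.61%, and the 20.8% and 4.17%, of all genes given above. The 4 h calls moved with the scaling: 3 higher and 7 lower under median centring, where 10.4% and 9.9% of all genes were, 4 and 3 with equal totals, where 13% and 6.78% were, and 4 and 6 after quantile normalization, where 10.2% and 9.87% were. Icmt, Atg7 and Atg12 stayed called higher and Il1b lower under all 3, Atl3 was called higher with equal totals alone, and Atl2, Socs1, Rce1 and Gsdmd were called under none. At 0 h each scaling gave 1 higher, Atg12, and 3 lower, Ifngr1, Casp4 and Nlrp3, while Atg3 was no longer called, and 6.77% to 7.25% of all genes were called higher and 6.98% to 7.43% lower. As deposited, none passed with an adjusted p under 0.05 at either time, and the unadjusted p was under 0.05 for 6 of 42 at 0 h and 14 of 42 at 4 h, beside 21.3% and 34.3% of all genes tested.

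Among the 13 regulators, Irf1 was higher at 4 h by 4.18 on the log2 scale in WT and 4.82 in Nudt21-cKO, and Irf8, which acts with IRF1 at such elements, by 3.03 and 3.12. Between genotypes Irf8 differed by -0.10 at 0 h and -0.01 at 4 h, and neither was called. Irf1 was 14179 and 14391 in WT and 19303 and 21570 in Nudt21-cKO at 4 h (log2 fold change 0.51, limma adjusted p = 0.0934), a separation smaller than 1.5-fold.

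Ifngr1, the ligand-binding chain of the IFNγ receptor, was called lower at 0 h, with 5355 and 4998 in WT and 3249 and 3309 in Nudt21-cKO (log2 fold change -0.66, SE 0.11, limma adjusted p = 0.122). Socs1, which inhibits JAK signalling, was called higher at 4 h, with 2560 and 2139 in WT and 3727 and 4295 in Nudt21-cKO (0.77, SE 0.16, adjusted p = 0.0881). At 0 h Socs1 differed by -1.39 and was not called. The samples of the genotypes did not overlap for Ifngr1 at 0 h or for Socs1 at either time, with Socs1 at 14.7 and 6.57 in WT and 4.23 and 3.19 in Nudt21-cKO at 0 h, beside the 20.9% of all genes without overlap and lower at 0 h and the 51.1% higher at 4 h.

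Of the 6 prenylation genes, 2 were called higher at 4 h. Rce1, the protease that trims prenylated CaaX proteins, was 258 and 214 in WT and 367 and 366 in Nudt21-cKO, a log2 fold change of 0.64. Icmt, the methyltransferase that acts after it, was 111 and 115 in WT and 201 and 247 in Nudt21-cKO, a log2 fold change of 0.98 (SE 0.15, limma adjusted p = 0.0673). All the Nudt21-cKO values of both genes lay above the WT values, as in 51.1% of all genes at 4 h.

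Of the 11 positioning genes, Atg7 and Atg12, of the conjugation system that loads ATG8 proteins onto membranes, were called higher at 4 h. Atg7 was 248 and 266 in WT and 481 and 509 in Nudt21-cKO (log2 fold change 0.94, SE 0.11, limma adjusted p = 0.0549), and Atg12 was 304 and 379 against 689 and 766 (1.10, adjusted p = 0.0673). Atg12 was also called higher at 0 h (0.82), as was Atg3 (0.65), the enzyme that transfers ATG8 proteins to lipid. None of the immunity-related GTPases Irgm1, Irgm2 and Igtp was called in either genotype comparison.

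Among the 8 inflammasome genes found, Gsdmd, whose product forms the pore that is opened by caspase-11, was called higher at 4 h, with 2026 and 2271 in WT and 3434 and 3384 in Nudt21-cKO (log2 fold change 0.67, limma adjusted p = 0.0732). Il1b, the cytokine that leaves through such pores, was called lower, with 329270.0 and 227500.0 in WT and 140740.0 and 135680.0 in Nudt21-cKO (-0.99, SE 0.24, adjusted p = 0.101). Casp4, the gene of caspase-11, and Nlrp3, a sensor of the canonical inflammasome, were named after their values were seen. Casp4 was 641 and 538 in WT and 415 and 396 in Nudt21-cKO at 0 h, and 6270.0 and 6466 against 4678.5 and 4579 at 4 h, with log2 fold changes of -0.53 and -0.46. Nlrp3 was 661 and 595 in WT and 394 and 485 in Nudt21-cKO at 0 h, and 13275 and 11852 against 9542 and 9701 at 4 h, with log2 fold changes of -0.52 and -0.38. Both had the Nudt21-cKO samples below the WT samples at both times, as 20.9% of all genes had at 0 h and 14.9% at 4 h. Of the same list, Casp1 and Pycard overlapped at both times, and Gsdmd was higher without overlap at both. Il1b, Aim2 (-0.37 at 4 h) and Il18 (-0.35 at 4 h) overlapped at 0 h and were lower without overlap at 4 h. Casp4 and Nlrp3 were not called as deposited and were called lower under each of the 3 scalings at both times. The median over the 8 inflammasome genes at 4 h was -0.36. Of the 4 relatives found, the atlastins Atl2 (0.62) and Atl3 (0.85), which are GTPases of the endoplasmic reticulum, were called higher at 4 h, and Gbp10 (-0.15, adjusted p = 0.441) was not called. Under the interaction test none of the 42 passed, and 8 had an unadjusted p under 0.05, where 3.05% and 22.1% of all genes did.

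The genes outside the family whose pattern lay nearest to the median member were ranked by the root mean square difference over the 8 samples on the log2 scale, each gene centred on its WT 0 h mean, among 16284 genes. Cd40, a costimulatory receptor of antigen-presenting cells, was nearest at 0.21, rising from 132 and 118 to 68092 and 62213 in WT and from 113 and 118 to 64842 and 65369 in Nudt21-cKO. Il1f6, a cytokine gene of the IL-1 family, also had 0.21, but it was listed at 0 in the 0 h samples and reached only 36.1 to 50.9 at 4 h, so its likeness rests on the pseudocount. Socs3, an inhibitor of cytokine signalling, had 0.24, with 31.8 to 33.1 at 0 h, 14706 and 12400 in WT and 19911 and 19933 in Nudt21-cKO at 4 h. By the same measure Gbp2 lay 0.07 from the median member, but this nearness was built in. With Gbp2b counted, the log2 fold change of Gbp2 was itself the median of the 9 members (8.74 in WT and 9.05 in Nudt21-cKO). Every other member lay farther away than Cd40, Il1f6 and Socs3, from 0.45 for Gbp6 and 0.83 for Gbp5 to 3.07 for Gbp2b. The likeness of these genes is thus to the middle of a widely spread family and not to each member.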

How the data were processed

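The authors sequenced libraries made with a NEBNext Ultra kit as paired reads, aligned them with HISAT2 (version 2.2.1), quantified RefSeq genes of mm10 with StringTie (version 2.1.7), and deposited a table for each time. The deposited values are signal, read here as mean coverage per base for each gene symbol: the tables name no unit, and no scaling between samples was found. The study states read depth only as a minimum per sample, and coverage does not give the reads behind each gene. Columns holding the authors' fold changes, p-values and false discovery rates were not used, and 0 value columns of samples were left unused.

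Log2(coverage + 0.1) was fitted with limma 3.58.1 in R 4.3.3 for genes whose coverage averaged 0.5 or more over the compared samples, and fold changes are on that scale. Adjusted p-values are Benjamini-Hochberg values over all genes tested. Fits used the samples of each comparison, and all 8 samples for the interaction. The script was tested on simulated data. The alternatives were another pseudocount, no filter, 3 scalings, an intensity trend, a pooled fit, a replicate block and leaving out each sample.

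Members and lists were chosen with earlier results of these data known. Named genes were the members, Nudt21, listed genes called in a genotype comparison, Gbp10, Gbp11, Irf1, Irf8 and Socs1. The 3 genes outside the family nearest to its median member were also named. Aim2, Casp1, Casp4, Il18, Nlrp3, Pycard and the immunity-related GTPases were named outside this rule, after their values were seen, as were the cell type markers. Another gene of this rule and a sequence window are not reported here. Gbp11, Mx1, Mx2 and Irgb10 were not found under these symbols and were not analysed here. Each sample pooled 2 mice, and whether same-numbered samples at 0 h and 4 h came from the same mice is not stated. The limma p-values rest on the spread within groups of 2 pools, moderated by the spread over all genes.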

Additional observations from a re-analysis of the deposited data

Results flagged for a closer look

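The genotype difference of Gbp3 was 0.875 higher at 4 h than at 0 h on the log2 scale (limma interaction, adjusted p = 0.0462). Coverage in Nudt21-cKO was below WT in both samples at 0 h, with 89.3 and 96.1 against 139 and 142, and above it in both at 4 h, with 15240 and 15545 against 13170 and 12225. The 4 h side was not called (log2 fold change 0.28, adjusted p = 0.186). Relative to the median of all genes tested at 4 h, Gbp3 stood at -0.03.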

How the results depend on the processing

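At 0 h 1 member was called between genotypes. The count was 0 with an adjusted p, 2 with all 8 samples in the fit and 0 to 2 when a sample was left out. At 4 h, where 2 were called, the count was 0 with an adjusted p, 1 under median centring, 1 with equal totals, 1 after quantile normalization and 1 to 2 when a sample was left out. The stimulation count was 9 in each genotype under every alternative, where Gbp2b, at 0 in every 0 h sample, was tested only through its 4 h values. For the interaction, 1 as reported, the count was 3 of 9 with an unadjusted p, beside 22.1% of all genes, 0 without the filter, 0 under median centring, 0 after quantile normalization, 2 with an intensity trend and 0 to 0 when a sample was left out.

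Signs at 4 h reversed under median centring for Gbp2 (-0.25), Gbp3 (-0.058), Gbp4 (-0.21), Gbp5 (-0.22) and Gbp9 (-0.16), with equal totals for Gbp2 (-0.13), Gbp4 (-0.086), Gbp5 (-0.10) and Gbp9 (-0.031), and after quantile normalization for Gbp2 (-0.10), Gbp4 (-0.14), Gbp5 (-0.084) and Gbp9 (-0.070). Leaving out a sample gave Gbp7 at 0 h -0.15 to 0.14, Gbp2 at 4 h -0.026 to 0.20, and interactions of -0.23 to 0.78 for Gbp8 and -1.61 to 0.037 for Gbp4. The cause was not tested. The scalings of the listed pathway genes were added after seeing the data. Of all calls at 4 h, 83.3% were higher as deposited, 51.2% under median centring, 65.7% with equal totals and 50.9% after quantile normalization; at 0 h these were 61.6%, 50.9%, 47.7% and 49.1%, and for stimulation in WT 17.8%, 61.4%, 18.6% and 44.1%.

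No paired analysis was possible between genotypes because WT and Nudt21-cKO samples share no replicate number. Across times, deviations of same-numbered samples correlated at 0.02 in both genotypes over 16284 genes. This value cannot tell whether same-numbered samples came from the same pool of mice, and the labels do not say. With the replicate block the 8 members above 0 at both times stayed called for stimulation in each genotype, and 0 were called for the interaction (Gbp3 adjusted p = 0.177, range over alternatives 0.00855 to 0.177). Coverage does not give the number of reads behind each gene, so counting error was not given, and 2 samples a group limit every genotype comparison.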
